A study of Canis lupus with 23 samples.

Results

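The comparison was between 3 canine lymphomas with high T cell marker signals (T-marker-high: Lymphoma_3, Lymphoma_4 and Lymphoma_6) and 3 with high B cell marker signals (B-marker-high: Lymphoma_0, Lymphoma_2 and Lymphoma_5). The groups were chosen by the signals of 6 genes on the same arrays: CD3D, CD3E and CD3G, chains of the CD3 complex of the T cell receptor; CD79A and CD79B, the signal chains of the B cell receptor; and MS4A1, which codes for the B cell surface protein CD20. These 6 tumors were part of 7 lymphomas and of 23 tumors in all, and Lymphoma_1 was in neither group because its marker signals were unclear. The 16 tumors of other types were melanomas, sarcomas, transitional cell carcinomas and 1 tumor each of 4 more types.

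Each tumor was a biopsy from a pet dog with naturally occurring cancer, and its RNA was read once on the Affymetrix Canine Genome 2.0 array. The labels give the diagnosis lymphoma for all 7 and no immunophenotype, breed or treatment for a single tumor, so the T-marker-high and B-marker-high groups are a division by expression and not a diagnosis. Some of the study's lymphomas came from a cohort of golden retrievers, and which of the 7 these are was not analysed here. The spread within a group is a spread between dogs.

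Lymphomas are tumors of lymphocytes and usually keep much of the expression program of the cell they arose from. T lymphocytes carry the T cell receptor with CD3 and pass its signal through kinases such as LCK, whereas B lymphocytes carry surface immunoglobulin with CD79 and pass its signal through SYK, BTK and the adaptor BLNK. In dogs both forms are common clinical diseases, and they are distinguished in practice by staining for CD3, CD79A or CD20. A lymphoma biopsy is a mixture, in which reactive T cells, macrophages and stroma lie among the tumor cells, so fewer cells of a type and less RNA per cell cannot be told apart in these bulk samples.

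All levels below are log2(signal + 16), averaged over the probesets of a gene, and the lowest possible level is 4. One unit is a factor of 2 in signal plus 16, which understates changes of weak genes. Differences are T-marker-high minus B-marker-high. Values of single tumors are given in the order Lymphoma_3, Lymphoma_4, Lymphoma_6 for T-marker-high and Lymphoma_0, Lymphoma_2, Lymphoma_5 for B-marker-high.

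The 6 grouping genes are described first, with no test. CD3E had levels of 12.60, 12.83 and 12.44 in the T-marker-high tumors, against 7.75, 6.73 and 10.73 in the B-marker-high tumors. CD3D lay at 12.85, 13.28 and 13.40 in T-marker-high, against 11.80, 12.07 and 12.10 in B-marker-high. CD3G lay at 14.12, 14.75 and 14.98 in T-marker-high, against 12.72, 13.61 and 12.62 in B-marker-high. CD3D and CD3G were thus strong in both groups: the B-marker-high tumors exceeded the highest of the 16 tumors of other types, 11.08 for CD3D and 12.13 for CD3G. CD79A had levels of 8.40, 7.25 and 7.81 in T-marker-high tumors, against 11.32, 10.95 and 9.37 in B-marker-high tumors. CD79B had 7.47, 7.39 and 6.61 in T-marker-high, against 10.97, 10.69 and 9.49 in B-marker-high. MS4A1 had 8.62, 11.07 and 6.81 in T-marker-high, against 12.86, 12.72 and 11.63 in B-marker-high. The groups did not overlap for any of the 6 genes. The closest pairs were Lymphoma_3 and Lymphoma_2 for CD3G, at 14.12 and 13.61, and Lymphoma_4 and Lymphoma_5 for MS4A1, at 11.07 and 11.63. Lymphoma_5 had the highest CD3E and the lowest CD79A, CD79B and MS4A1 of the B-marker-high tumors.

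**Figure D1:**
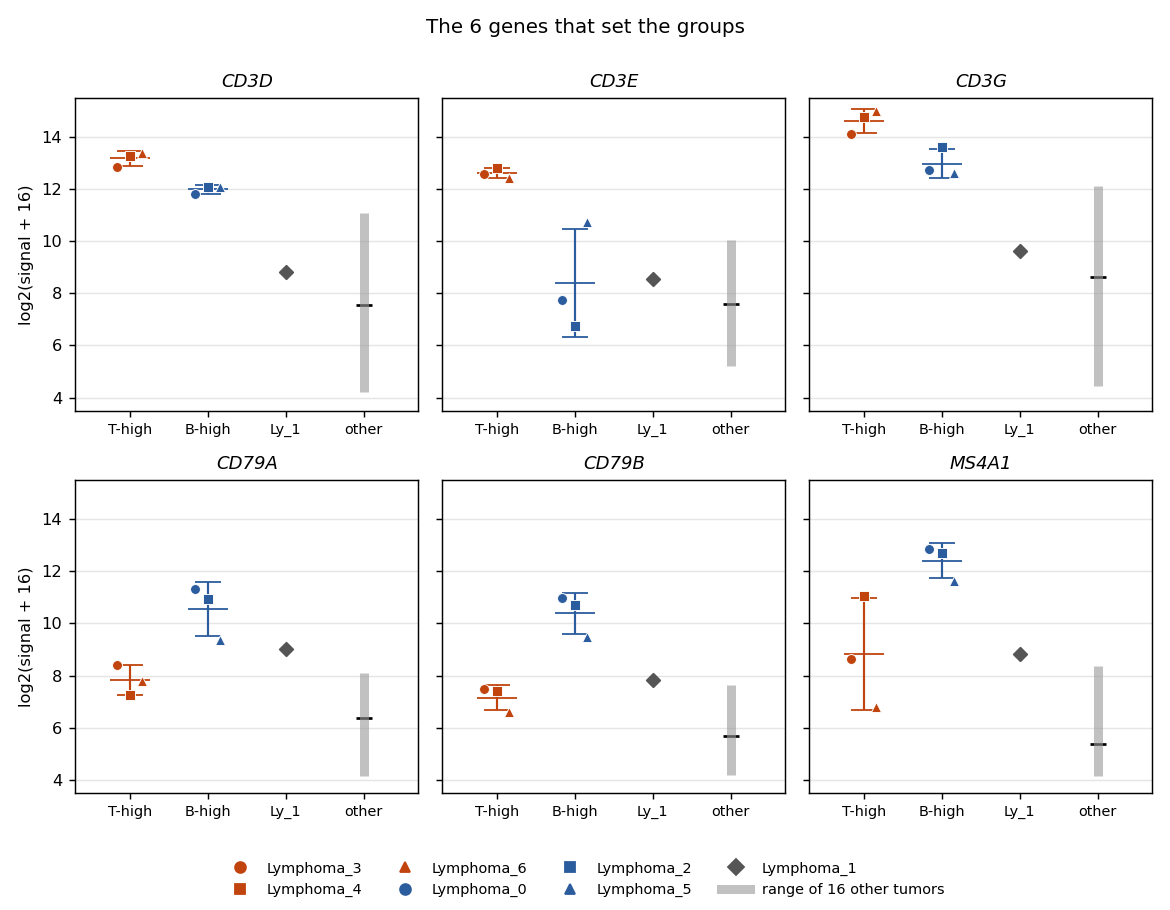
Levels, as log2(signal + 16), of the 6 genes by which the groups were chosen, 1 point per tumor; the bars give the mean and SD of the 3 T-marker-high and 3 B-marker-high tumors, and grey bars the range of the 16 tumors of other types with their median. The groups do not overlap at any gene, and CD3D and CD3G are high in both.

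The other 9966 genes that passed the filter on low signals were tested with limma (two-sided, Benjamini-Hochberg adjustment). Calls required a difference of at least 1 in size together with an adjusted p below 0.05. Since the groups came from the same arrays, an adjusted p here says how closely a gene goes with a division already seen in the data, measured against the spread between 3 and 3 dogs. There were 329 called genes, 3.30% of those tested: 149 higher (1.50%) and 180 lower (1.81%) in T-marker-high tumors. All 329 had ranges that did not overlap. Over all tested genes, all 3 T-marker-high tumors lay above all 3 B-marker-high tumors for 1225 genes (12.3%) and below them for 1074 (10.8%), and the median difference was 0.01. Of the 329 calls, 78 held when any 1 of the 6 tumors was left out, 30 of them higher and 48 lower in T-marker-high tumors. The number of calls fell most without Lymphoma_0 (100) and without Lymphoma_2 (106), and was 326 without Lymphoma_5.

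The filter kept a gene if 3 or more of the 23 arrays were above 7.03, and some genes met it only with the arrays of 1 group. There were 192 such genes for the T-marker-high tumors, of which 18 were called higher, and 155 for the B-marker-high tumors, of which 14 were called lower. A gene of this kind had to be high in its group to be tested, so its difference is a description and supports nothing. Among the genes named here with a call, these were CCR9, CD40LG, GRAP2, GTSF1, NCAM1, PRXL2B, TCF7 and TOX2 on the T-marker-high side, and ARHGEF38, ASIC5, BCL11A, KLHL14, PKHD1 and TXLNB on the B-marker-high side; most are given below without an adjusted p. Of the 9619 genes that did not depend on 1 group, 131 were called higher (1.36%) and 166 lower (1.73%).

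The array measures overlapped between the groups, though the control ratio was shifted. The median signal of the T-marker-high arrays (102, 101 and 100) lay inside the range of the B-marker-high arrays (121, 115 and 85.4). The log2 ratio of 3′ to 5′ control probesets for actin and GAPDH is a sign of RNA integrity. It was 5.56, 5.33 and 6.56 in T-marker-high tumors, against 6.10, 7.03 and 6.87 in B-marker-high tumors. The ranges overlapped, but Lymphoma_3 and Lymphoma_4 lay below every B-marker-high array. Lymphoma_2 and Lymphoma_5 lay above every T-marker-high array. The part of this ratio in the results was not tested. Pearson correlations across the 9966 genes, which share the array platform and its probe effects, were 0.900 to 0.905 among T-marker-high tumors and 0.899 to 0.918 among B-marker-high tumors, and 0.842 to 0.871 between the groups.

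T cell transcription factors were higher in T-marker-high tumors in part of the list. GATA3, a factor needed for T cell development and the T helper 2 program, lay at 12.26, 11.72 and 12.74 in T-marker-high tumors, against 7.02, 6.91 and 7.41 in B-marker-high tumors (difference 5.13 ± 0.30 SE, adjusted p = 0.000385). LEF1, which acts with TCF7 downstream of WNT signals in thymocytes, lay at 12.75, 11.96 and 11.62 against 6.98, 5.84 and 7.78 (T-marker-high against B-marker-high; 5.24 ± 0.49, adjusted p = 0.00161). TCF7 itself lay at 9.67, 9.95 and 8.69 in T-marker-high tumors and at 5.40, 5.59 and 6.53 in B-marker-high tumors (3.60 ± 0.46). Its 2 probesets differed by 0.86 and 6.34, so its value depends on how they are joined. In each of these 3 genes the lowest T-marker-high tumor was more than 2 units above the highest B-marker-high tumor. SATB1, a chromatin organizer of thymocytes, was higher by 3.67 ± 0.45 (adjusted p = 0.00325). TOX2 was at 8.28 in the lowest T-marker-high tumor, Lymphoma_3, and close to the lowest possible level, at 4.55, 4.28 and 4.31, in B-marker-high tumors (4.94 ± 0.51). IKZF2, which codes for Helios and was named after its value was seen, was higher by 3.12 ± 0.40 (adjusted p = 0.00400). Of the 26 factors of the list 19 were on the array and 11 passed the filter, TOX2 and TCF7 only through the T-marker-high tumors. These 6 were called higher and none lower, against 1.50% called higher over all tested genes. Without TOX2 and TCF7 it was 4 of 9 (44.4%), against 1.36%. The median difference over the 11, with TOX2 and TCF7 among them, was 3.60. This is the value of TCF7 itself, so the median is a description. The calls of GATA3, LEF1, SATB1 and IKZF2 held without any 1 tumor. MYB and TOX were 3.44 and 3.61 higher but were not called (adjusted p = 0.0755 and 0.0829), with B-marker-high tumors spread between 4.32 and 8.56 for MYB and between 4.21 and 8.86 for TOX.

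**Figure D2:**
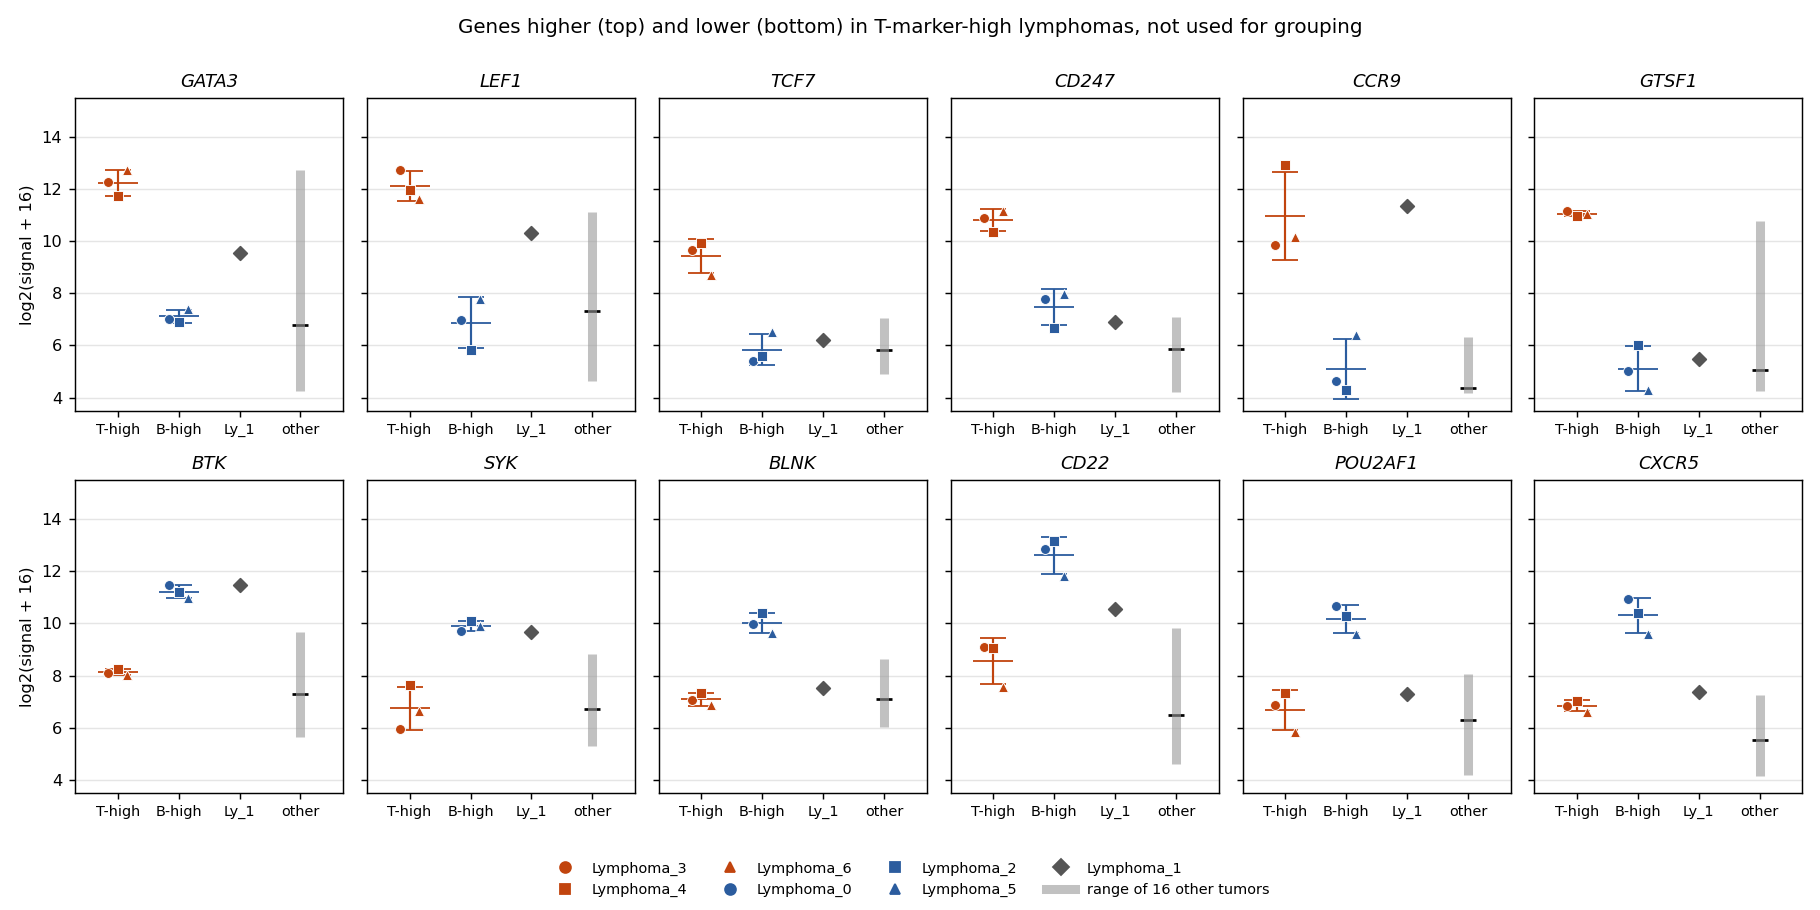
Levels, as log2(signal + 16), of 6 genes higher (top row) and 6 genes lower (bottom row) in T-marker-high lymphomas, 1 point per tumor; bars give mean and SD of 3 tumors, and grey bars the range of the 16 tumors of other types with their median. The 2 groups do not overlap at any of the 12 genes, while Lymphoma_1 sits beside T-marker-high at CCR9 and beside B-marker-high at BTK and SYK.

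Besides the CD3 genes, the T cell surface list had 17 genes on the array and 15 tested, of which 6 were called higher in T-marker-high tumors and none lower, against 1.50% called higher over all tested genes (median difference 2.33). None of the 6 depended on 1 group to pass the filter, as 3 other members did. This list, like the other T and B cell lists, goes with the grouping genes and is not independent evidence of the grouping. CD247, the CD3 zeta chain, lay at 10.90, 10.35 and 11.18 in T-marker-high tumors, against 7.77, 6.68 and 7.97 in B-marker-high tumors (3.34 ± 0.39, adjusted p = 0.00278). CD28, the main costimulatory receptor of T cells, lay at 10.54, 11.37 and 12.04 in T-marker-high tumors, against 9.26 in Lymphoma_5 and at most 6.03 in the other B-marker-high tumors (4.55 ± 0.93, adjusted p = 0.0351). TRAT1, which stabilizes the T cell receptor, was higher by 4.94, CD96 by 2.86, CD7 by 2.69 and CD2 by 1.48 (adjusted p = 0.0463, 0.0184, 0.0188 and 0.0208). The call of CD247 held without any 1 tumor. The calls of CD28, TRAT1, CD96, CD7 and CD2 were each lost without Lymphoma_2, Lymphoma_4 or Lymphoma_0 (also without Lymphoma_3 or Lymphoma_6 for CD28 and CD96, and without Lymphoma_6 for TRAT1 and CD7), with adjusted p values up to 0.151.

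CD5, CD4, CD6 and CD27 were also higher in mean but not called. CD5 lay at 7.10, 11.24 and 9.73 in T-marker-high tumors and at 4.44, 5.62 and 6.45 in B-marker-high tumors (difference 3.85). It passed the filter only through the T-marker-high tumors, so this difference is a description. CD4, the coreceptor of helper T cells, lay at 9.01, 11.55 and 10.20 against 8.37, 7.96 and 8.18 (T-marker-high against B-marker-high; 2.08, adjusted p = 0.0784). CD8A, the coreceptor of cytotoxic T cells, did not pass the filter: it lay at 9.71 in Lymphoma_3, at 4.57 in Lymphoma_4 and at 4.43 in Lymphoma_6, against 6.83, 4.66 and 7.16 in B-marker-high tumors. CD8A thus stood out in 1 T-marker-high tumor, and its groups overlapped. CD8B differed by -1.05 (adjusted p = 0.453).

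Of 26 tested genes of T cell receptor signaling (27 on the array), 6 were called higher in T-marker-high tumors and none lower, against 1.50% called higher over all tested genes. A higher mean was seen in 24 of the 26, against 5077 of all 9966 tested genes (median difference 1.08). The count of means and the median take in 4 members that passed the filter only through the T-marker-high tumors, so both are a description. Without these 4 members, 5 of 22 were called higher (22.7%, against 1.36% of all genes that did not depend on 1 group). LCK, the kinase that phosphorylates CD3, lay at 11.15, 10.89 and 10.02 in T-marker-high tumors, against 5.73, 5.20 and 8.48 in B-marker-high tumors (4.22 ± 0.76, adjusted p = 0.0223). THEMIS, a regulator of T cell receptor signals during thymic selection, lay at 13.69, 11.50 and 10.59 in T-marker-high tumors, against 4.90, 6.36 and 8.34 in B-marker-high tumors (5.39 ± 0.93, adjusted p = 0.0190). The other called members were FYN, GRAP2, SKAP1 and LCP2, with differences of 2.05, 2.20, 1.57 and 1.06. LCP2 was named after its value was seen. All 6 calls in this list were lost when a single tumor was left out, with adjusted p up to 0.108 for LCK and 0.143 for LCP2: each was lost without Lymphoma_4, all but SKAP1 without Lymphoma_2, all without Lymphoma_0, and some without Lymphoma_3, Lymphoma_5 or Lymphoma_6. VAV1 and RASGRP1, which differed by 0.33 and 0.02, were not called.

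Most cytotoxic genes overlapped between the groups. Of the 14 tested, CTSW and NCAM1 were called higher in T-marker-high tumors and none lower (median difference -0.07), against 1.50% called higher over all tested genes. NCAM1 passed the filter only through the T-marker-high tumors. Of the 11 that did not depend on 1 group, 1 was called higher (9.09%, against 1.36%). NCAM1, an adhesion molecule of NK cells, was higher by 2.70 as the mean of 5 probesets and by 5.23 at its brightest. CTSW, a cathepsin of cytotoxic T and NK cells, lay at 12.18, 11.66 and 12.19 in T-marker-high tumors, against 4.84, 4.46 and 9.81 in B-marker-high tumors (5.65 ± 1.17, adjusted p = 0.0368). The call of CTSW was lost without Lymphoma_0, Lymphoma_2, Lymphoma_3, Lymphoma_4 or Lymphoma_6 (adjusted p up to 0.152). That of NCAM1 was lost without Lymphoma_0, Lymphoma_2, Lymphoma_3 or Lymphoma_4. GZMB, a granule protease, lay at 7.94, 6.85 and 5.98 in T-marker-high tumors and at 4.31, 4.41 and 11.50 in B-marker-high tumors. NKG7 lay at 6.10, 7.83 and 8.05 in T-marker-high and at 7.50, 6.05 and 12.01 in B-marker-high. Lymphoma_5 was the highest of the 6 tumors for both, and also for GZMA (10.89), GZMK (8.88) and PRF1 (7.02). IFNG, the gene of interferon gamma, did not pass the filter and lay at 6.60, 6.17 and 6.25 in T-marker-high tumors, against 6.64, 4.78 and 11.09 in B-marker-high tumors. CXCL10 and GBP5, targets of interferon gamma named after their values were seen, were at 13.79 and 12.21 in Lymphoma_5, above the other 5 tumors. The mean level of the cytotoxic list was 8.22, 8.31 and 8.49 in T-marker-high tumors, against 7.25, 7.01 and 9.56 in B-marker-high tumors.

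Among costimulatory and checkpoint genes, CD40LG was called higher in T-marker-high tumors and its receptor CD40 lower. CD40LG, the helper T cell ligand, lay at 8.50, 9.41 and 8.97 in T-marker-high tumors, against 5.17, 6.30 and 6.76 in B-marker-high tumors (2.88 ± 0.48). CD40 lay at 7.91 to 9.19 in T-marker-high tumors, against 11.15, 10.68 and 10.52 in B-marker-high tumors (-2.08 ± 0.36, adjusted p = 0.0190). BTLA, an inhibitory receptor, differed by -1.95 (adjusted p = 0.0183). These were the only calls among 16 tested members of the list (23 on the array), against 1.50% called higher and 1.81% lower over all tested genes. CD40LG passed the filter only through the T-marker-high tumors. Of the 15 other members, 2 were called lower (13.3%, against 1.73%) and none higher. All 3 calls of the list were lost without Lymphoma_2, and CD40LG also without Lymphoma_4 or Lymphoma_6. CD40 was also lost without Lymphoma_0 (adjusted p up to 0.102) and BTLA without Lymphoma_0 or Lymphoma_6 (up to 0.0972). ICOS lay at 7.89, 12.98 and 8.85 in T-marker-high tumors and at 6.92, 6.40 and 11.09 in B-marker-high tumors, with overlap. CTLA4 differed by -0.37 (adjusted p = 0.877).

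The genes with the largest positive differences were not all T cell genes. GTSF1, known in the mouse for silencing transposons in germ cells, had the largest: 11.16, 10.96 and 11.04 in T-marker-high tumors, against 5.03, 6.02 and 4.30 in B-marker-high tumors (5.94 ± 0.43). All 3 of its probesets were higher in T-marker-high tumors. INPP4B, a phosphatase of the phosphoinositide 3-kinase pathway, lay at 12.19, 11.06 and 10.60 in T-marker-high tumors, against 6.93, 7.29 and 7.30 in B-marker-high tumors (4.11 ± 0.39, adjusted p = 0.00172). It was the only 1 of 15 tested genes of that pathway to be called, against 1.50% called higher over all tested genes, and nothing is read from this count. FBP1, an enzyme of gluconeogenesis, lay at 8.98, 9.52 and 9.41 in T-marker-high tumors, against 5.90, 5.17 and 5.11 in B-marker-high tumors (3.91 ± 0.38, adjusted p = 0.00179). GPC4, a heparan sulfate proteoglycan, was higher by 4.60 and PLXNB1, a semaphorin receptor, by 3.80 (adjusted p = 0.00265 and 0.00783). The calls of INPP4B, FBP1, GPC4 and PLXNB1 held without any 1 tumor. GTSF1 passed the filter only through the T-marker-high tumors, so its difference is a description. CD52, the target of alemtuzumab in human lymphoid disease, lay at 9.58, 12.16 and 10.07 in T-marker-high tumors, against 4.47, 5.42 and 7.61 in B-marker-high tumors (4.77 ± 0.86, adjusted p = 0.0223). HTR2A, a serotonin receptor, was higher by 4.45 and KCNMB4, a potassium channel subunit, by 4.03 (adjusted p = 0.0115 and 0.0126). PRXL2B, a prostaglandin F synthase, was higher by 3.68. H2BU1, a histone gene of a family of near-identical copies that the probes may not separate, was higher by 5.25 (adjusted p = 0.0206). Single tumors decided these last calls. CD52 was lost without Lymphoma_0, Lymphoma_2, Lymphoma_4 or Lymphoma_6 (adjusted p up to 0.0977). HTR2A was lost without Lymphoma_0 or Lymphoma_2 (0.0576) and KCNMB4 without Lymphoma_2 or Lymphoma_4 (0.0643). H2BU1 was lost without Lymphoma_3 or Lymphoma_6 (0.0645). PRXL2B, which passed the filter only through the T-marker-high tumors, was lost without any tumor but Lymphoma_3.

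Genes of homing were called lower in T-marker-high tumors, with CCR9 the only one called higher. CCR9, the receptor that guides thymocytes and gut-homing T cells, lay at 9.85, 12.92 and 10.16 in T-marker-high tumors, against 4.62, 4.28 and 6.42 in B-marker-high tumors (5.87 ± 0.83; the call was lost without Lymphoma_0). CCR9 passed the filter only through the T-marker-high tumors, so its difference is a description. Its highest level in the 16 tumors of other types was 6.32. CXCR5, which guides B cells into follicles, lay at 6.85, 7.04 and 6.62 in T-marker-high tumors, against 10.95, 10.40 and 9.60 in B-marker-high tumors (-3.48 ± 0.37, adjusted p = 0.00205). CXCL13, the ligand of CXCR5, lay at 10.92, 9.46 and 7.45 in T-marker-high tumors, against 13.24, 12.19 and 12.22 in B-marker-high tumors (-3.28 ± 0.73, adjusted p = 0.0472). CCR2 and P2RY10 differed by -3.02 and -2.59, and the ligand CCL20 by -2.78 (adjusted p = 0.0295, 0.0117 and 0.0390). CCR9, CCR2 and P2RY10 were the calls among 17 tested receptors of the homing list (CXCR5 stands in the B cell surface list). CXCL13 and CCL20 were those among 15 tested ligands. Over all tested genes 1.50% were called higher and 1.81% lower. Of the 16 receptors and 14 ligands that did not depend on 1 group, 2 each were called lower (12.5% and 14.3%, against 1.73%) and none higher. The calls of CXCL13, CCL20 and CCR2 were lost without Lymphoma_0, Lymphoma_2, Lymphoma_4 or Lymphoma_6 (CXCL13 and CCL20 also without Lymphoma_5; adjusted p up to 0.182), and that of P2RY10 without Lymphoma_0 or Lymphoma_2 (0.0662). CCR4, a receptor of T helper 2 and skin-homing T cells, was at 11.52 and 11.99 in Lymphoma_3 and Lymphoma_4 but at 6.66 in Lymphoma_6, inside the B-marker-high range of 6.29 to 7.38 (adjusted p = 0.187). Its ligand CCL17 lay at 6.15, 11.28 and 9.13 in T-marker-high tumors and at 6.37, 4.94 and 4.49 in B-marker-high tumors. CCL17 passed the filter only through the T-marker-high tumors and was not called.

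B cell receptor signaling was the list with the most calls. Of 23 tested genes (25 on the array), none of which depended on 1 group to pass the filter, 11 were called lower in T-marker-high tumors and none higher, against 1.81% called lower over all tested genes, and the median difference was -1.18. BTK, the kinase blocked by ibrutinib, lay at 8.10, 8.27 and 8.04 in T-marker-high tumors, against 11.46, 11.22 and 10.96 in B-marker-high tumors (-3.07 ± 0.24, adjusted p = 0.000876). SYK, the first kinase of the pathway, lay at 5.96, 7.62 and 6.65 in T-marker-high tumors, against 9.71, 10.10 and 9.91 in B-marker-high tumors (-3.16 ± 0.42, adjusted p = 0.00536). BLNK, the adaptor between them, lay at 7.06, 7.33 and 6.86 in T-marker-high tumors, against 9.99, 10.40 and 9.64 in B-marker-high tumors (-2.92 ± 0.31, adjusted p = 0.00202). BANK1, a scaffold of the same pathway, had the largest difference of the list, with 7.95, 8.37 and 6.29 in T-marker-high tumors, against 12.01, 12.41 and 11.87 in B-marker-high tumors (-4.56 ± 0.48, adjusted p = 0.00202). The remaining 7 were STAP1 (-4.22) and, named after their values were seen, PIK3AP1 (-2.81), PLCG2 (-2.80), RASGRP3 (-2.72), LYN (-2.16), SWAP70 (-1.99) and CD81 (-1.18). The calls held without any 1 tumor except for STAP1 and SWAP70, lost without Lymphoma_0 or Lymphoma_2 (adjusted p up to 0.0775), and CD81, lost without any tumor but Lymphoma_5 (up to 0.162). PRKCB, PTPN6 and GRB2 differed by -0.11, -0.19 and 0.08, short of a call. PIK3CD, KLHL6 and MALT1 had higher means in T-marker-high tumors, by 1.34, 1.44 and 1.31, without passing the test (adjusted p = 0.236, 0.134 and 0.0510).

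On the B cell surface, 4 of 16 tested genes (21 on the array) were called lower in T-marker-high tumors and none higher, against 1.81% called lower over all tested genes (median difference -0.99). Another 4 of the 16 passed the filter only through the B-marker-high tumors and were not called. CD22, an inhibitory coreceptor, lay at 9.08, 9.07 and 7.55 in T-marker-high tumors, against 12.87, 13.15 and 11.82 in B-marker-high tumors (-4.05 ± 0.47, adjusted p = 0.00298). LY86 and CD180, which form 1 complex related to Toll-like receptor 4 on B cells, fell together: LY86 differed by -3.71 ± 0.39 and CD180 by -2.93 ± 0.30 (adjusted p = 0.00202 for both). CXCR5, given above, was the remaining one. All 4 calls held without any 1 tumor. CD72 lay at 7.29, 7.07 and 6.07 in T-marker-high tumors and at 9.80, 11.17 and 7.10 in B-marker-high tumors (adjusted p = 0.168), where Lymphoma_5 lay inside the T-marker-high range. CD37 and CD53, shared by many leukocytes, differed by -0.42 and 0.52 and were not called.

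Of the 25 tested B cell transcription factors, 4 were called lower in T-marker-high tumors and none higher, against 1.81% called lower over all tested genes (median difference -0.37). Of the 22 that did not depend on 1 group to pass the filter, 3 were called lower (13.6%, against 1.73%). POU2AF1, a coactivator of immunoglobulin genes, lay at 6.87, 7.32 and 5.83 in T-marker-high tumors, against 10.66, 10.27 and 9.58 in B-marker-high tumors (-3.50 ± 0.45, adjusted p = 0.00400). EBF1, which specifies the B lineage, lay at 6.75, 6.89 and 6.11 in T-marker-high tumors, against 8.99, 9.28 and 9.10 in B-marker-high tumors (-2.53 ± 0.34, adjusted p = 0.00543). LMO2, a germinal center marker in human B cell lymphoma, lay at 9.66, 9.75 and 9.85 in T-marker-high tumors, against 12.23, 12.10 and 12.57 in B-marker-high tumors (-2.54 ± 0.21, adjusted p = 0.00120). These 3 calls held without any 1 tumor. BCL11A, which passed the filter only through the B-marker-high tumors, differed by -2.52, a call lost without any tumor but Lymphoma_5. PAX5, the master factor of B cell identity, did not pass the filter: its 5 probesets averaged 5.79, 5.67 and 5.22 in T-marker-high tumors and 6.81, 6.75 and 6.99 in B-marker-high tumors, without overlap. The differences of the single PAX5 probesets ran between -3.26 and -0.10.

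BCL6, a repressor of germinal center B cells and of follicular helper T cells, had a higher mean in T-marker-high tumors and was not called. It lay at 10.31, 10.12 and 13.21 in T-marker-high tumors and at 8.48, 8.97 and 10.98 in B-marker-high tumors (difference 1.74, adjusted p = 0.336), with its highest level in Lymphoma_6. BACH2 differed by 1.91 (adjusted p = 0.112) and MEF2C by -1.42 (adjusted p = 0.421). HHEX, which differed by -1.83 (adjusted p = 0.0299; lost without any tumor but Lymphoma_5, up to 0.125), was the only call among 13 tested germinal center genes, whose median difference was 0.11. With 1.81% called lower over all tested genes, nothing is read from this count.

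**Figure D3:**
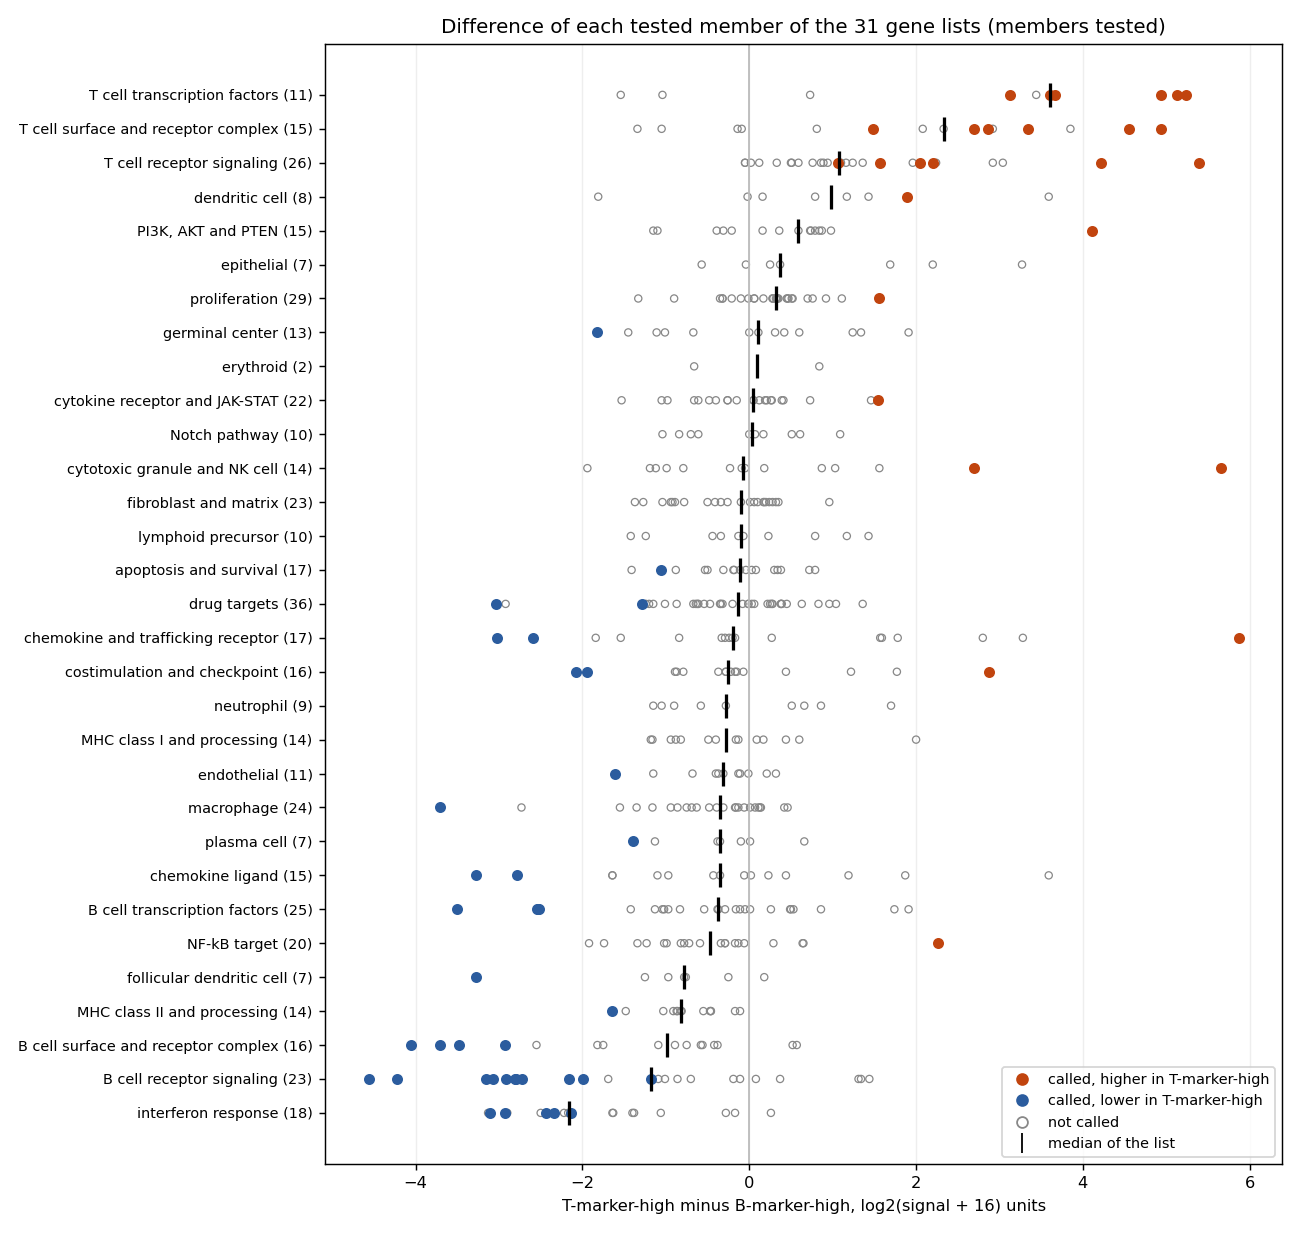
Difference between T-marker-high and B-marker-high lymphomas for each tested member of 31 gene lists (1 point per gene; filled points were called; the tick is the list's median), with the number tested in parentheses. The 3 T cell lists have medians of 3.60, 2.33 and 1.08, and the interferon and B cell receptor signaling lists medians of -2.15 and -1.18, while most other lists lie near 0. The T cell medians take in genes that passed the filter only through 1 group.

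Of 18 tested interferon response genes, 5 were called lower in T-marker-high tumors and none higher, against 1.81% called lower over all tested genes, and the list had the lowest median difference of the 31 (-2.15). These genes code for antiviral effectors that cells switch on when interferon is sensed. OAS2, which activates RNase L on viral RNA, lay at 9.84, 9.27 and 8.97 in T-marker-high tumors, against 11.95, 12.79 and 12.12 in B-marker-high tumors (-2.93 ± 0.30, adjusted p = 0.00202). MX2 lay at 9.01, 8.74 and 8.77 in T-marker-high tumors, against 11.07, 11.28 and 10.58 in B-marker-high tumors (-2.14 ± 0.25, adjusted p = 0.00302). IRF7, the factor that amplifies type I interferon, lay at 5.19, 6.13 and 5.06 in T-marker-high tumors, against 9.04, 9.09 and 7.57 in B-marker-high tumors (-3.11 ± 0.53, adjusted p = 0.0188). ISG15 and IFIT2 differed by -2.34 and -2.44 (adjusted p = 0.0319 and 0.0462). All 3 B-marker-high tumors exceeded the highest of the 16 tumors of other types for IRF7, which was 7.40. This did not hold for OAS2, MX2, ISG15 and IFIT2. Their highest tumor of other types, at 12.12, 10.92, 10.97 and 8.23, lay above the lowest B-marker-high tumor. EIF2AK2, the interferon-induced kinase PKR, is outside the list and was among the 20 named genes with the largest negative differences, with 7.53, 7.69 and 6.86 in T-marker-high tumors, against 10.67, 11.71 and 10.40 in B-marker-high tumors (-3.56 ± 0.39, adjusted p = 0.00222).

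The calls of OAS2, MX2 and EIF2AK2 held without any 1 tumor. IRF7 was lost without Lymphoma_0, Lymphoma_2, Lymphoma_3 or Lymphoma_6 (adjusted p up to 0.0976), ISG15 without any tumor but Lymphoma_5 (up to 0.144) and IFIT2 without any 1 of the 6 (up to 0.164). In 11 of the 18 genes all 3 T-marker-high tumors lay below all 3 B-marker-high tumors, against 10.8% of all tested genes. The mean level of the list was 7.94, 8.14 and 8.00 in T-marker-high tumors, against 9.73, 10.14 and 9.75 in B-marker-high tumors, and 6.56 to 9.88 (median 8.25) in the 16 tumors of other types. MX1, at 8.84, 8.82 and 8.39 in T-marker-high tumors and 11.76, 12.28 and 9.51 in B-marker-high tumors, was not called (adjusted p = 0.0616). GBP1 and IRF1, which respond mainly to interferon gamma, differed by 0.26 and -0.28, with the highest levels in Lymphoma_5 (13.02 and 9.79).

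**Figure D4:**
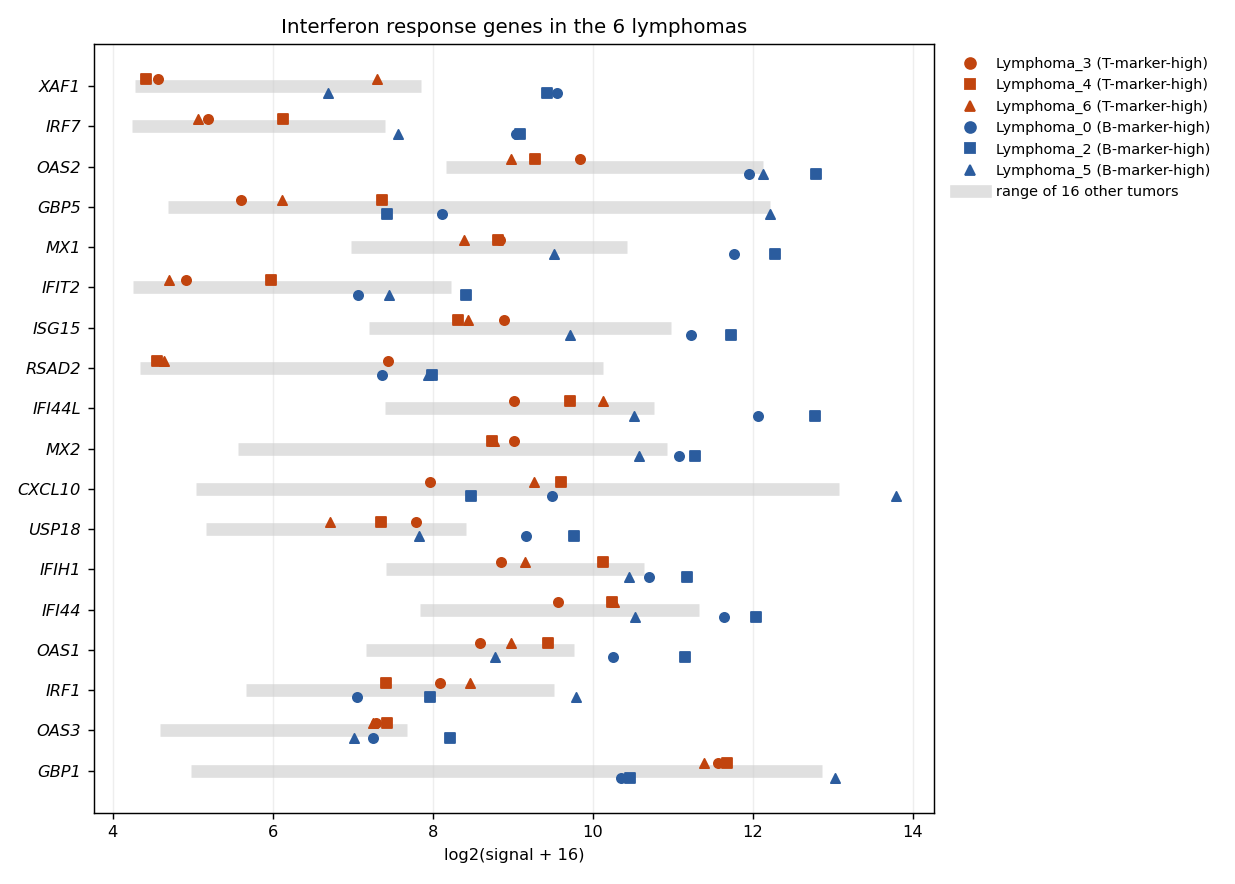
Levels, as log2(signal + 16), of the 18 tested interferon response genes, ordered by difference with the largest negative one on top; red points above the line are the 3 T-marker-high tumors, blue points below it the 3 B-marker-high tumors, and grey bars the range of the 16 tumors of other types. All 3 T-marker-high tumors lie below all 3 B-marker-high tumors in 11 genes, and Lymphoma_5 is highest for CXCL10, GBP5, GBP1 and IRF1.

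Several of the largest negative differences belonged to genes outside the B cell lists. ARHGEF38, a guanine nucleotide exchange factor, had 4.60, 5.14 and 4.41 in T-marker-high tumors, against 9.48, 9.85 and 8.87 in B-marker-high tumors (-4.68 ± 0.42), and all 4 of its probesets were lower in T-marker-high tumors. KLHL14 lay at 6.90, 6.78 and 5.93 in T-marker-high tumors, against 10.36, 10.35 and 9.90 in B-marker-high tumors (-3.67 ± 0.35). OSBPL6, an oxysterol-binding protein, lay at 7.75, 7.14 and 7.05 in T-marker-high tumors, against 10.77, 11.28 and 10.88 in B-marker-high tumors (-3.66 ± 0.29, adjusted p = 0.000925). KMO, an enzyme of tryptophan breakdown by the kynurenine route, lay at 7.83, 7.70 and 7.33 in T-marker-high tumors, against 11.54, 11.92 and 10.09 in B-marker-high tumors (-3.56 ± 0.44, adjusted p = 0.00348). KYNU, the next enzyme of that route and named after its value was seen, lay at 7.52, 7.85 and 7.56 in T-marker-high tumors, against 10.37, 10.94 and 11.13 in B-marker-high tumors (-3.17 ± 0.28, adjusted p = 0.00147). ASIC5, CCDC141, DENND5B and PKHD1 differed by -4.05, -3.81, -3.62 and -3.52 (adjusted p = 0.00400 for CCDC141 and 0.00325 for DENND5B). The calls of OSBPL6, KMO, KYNU, CCDC141 and DENND5B held without any 1 tumor. ARHGEF38, KLHL14, ASIC5 and PKHD1 passed the filter only through the B-marker-high tumors, so their differences are a description. STBD1, ZNF215, SLC4A4, TXLNB and BHLHE41 differed by -4.01, -3.94, -3.89, -3.65 and -3.56. These 5 were lost without Lymphoma_0 or Lymphoma_2 and in part without T-marker-high tumors, with adjusted p up to 0.116: Lymphoma_3 for STBD1, TXLNB and ZNF215, Lymphoma_4 for TXLNB and ZNF215, and Lymphoma_6 for ZNF215.

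Antigen presentation, proliferation and survival lists gave 0 or 1 call each, and nothing is read from these counts. A single call was 3.45% of the proliferation list and 7.14% of the class II list. Over all tested genes 1.50% were called higher and 1.81% lower. DLA-DMB, which loads peptides onto class II molecules, was the only call among 14 tested class II genes (-1.64 ± 0.37, adjusted p = 0.0482), a call lost without any 1 of the 6 tumors (up to 0.128). All 14 had a lower mean in T-marker-high tumors, against 4889 of all 9966 tested genes, with a median difference of -0.81. In 7 of the 14 all 3 T-marker-high tumors lay below all 3 B-marker-high tumors, against 10.8% of all tested genes. CD74 lay at 13.04, 13.69 and 13.69 in T-marker-high tumors against 13.86, 13.72 and 14.25 in B-marker-high tumors. None of 14 class I genes was called; class I and II genes of dogs have near-identical relatives that probes may not separate. MCM5, a DNA replication factor, was the only call among 29 proliferation genes, with 11.06, 11.59 and 10.95 in T-marker-high tumors, against 10.16, 9.31 and 9.44 in B-marker-high tumors (1.56 ± 0.29, adjusted p = 0.0259; lost without Lymphoma_2, Lymphoma_3, Lymphoma_4 or Lymphoma_5, up to 0.107). TOP2A lay at 13.69, 12.69 and 13.54 in T-marker-high tumors and at 12.90, 12.61 and 13.07 in B-marker-high tumors, with overlap (adjusted p = 0.475). CCND2, a G1 cyclin, was the only NF-kB target called of 20, with 12.34, 13.23 and 12.06 in T-marker-high tumors, against 10.15, 10.68 and 10.03 in B-marker-high tumors (2.26 ± 0.33, adjusted p = 0.00822; 0.0521 without Lymphoma_0). MYC and BCL2 differed by -0.90 and 0.30 (adjusted p = 0.308 and 0.828). CASP8 (-1.06, adjusted p = 0.0284; lost without any 1 of the 6, up to 0.116) was the only call among 17 apoptosis genes.

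A list of drug targets, which does not hold HTR2A, gave 2 calls among 36 tested genes, both lower in T-marker-high tumors (5.56%, against 1.81% called lower over all tested genes), and nothing is read from this count. ADORA2A, an adenosine receptor, lay at 7.60, 8.13 and 7.57 in T-marker-high tumors, against 10.86, 11.44 and 10.10 in B-marker-high tumors (-3.03 ± 0.36, adjusted p = 0.00302), and held without any 1 tumor. PDE4B, a phosphodiesterase, differed by -1.28 (adjusted p = 0.0484) and was lost without any 1 of the 6 (up to 0.149). HDAC2, HDAC3 and TYMS differed by -0.08, 0.25 and -0.35 and were not called. In the cytokine receptor list IL27RA was the only call of 22, higher by 1.54 (adjusted p = 0.0296; lost without Lymphoma_0, Lymphoma_4, Lymphoma_5 or Lymphoma_6, up to 0.125). The common gamma chain IL2RG was strong in both groups, at 11.72, 11.78 and 11.17 in T-marker-high tumors and at 11.19, 11.78 and 11.56 in B-marker-high tumors. None of 10 Notch genes and none of 10 lymphoid precursor genes was called. DNTT, the terminal transferase of immature lymphocytes, was at 11.99 in Lymphoma_3 but at 6.38 and 6.39 in the other T-marker-high tumors, against 8.64, 8.05 and 7.37 in B-marker-high tumors.

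Lists of markers of other cells in the biopsies gave 0 or 1 call each, and nothing is read from these counts. The shares over all tested genes were 1.50% called higher and 1.81% called lower. The mean level of 24 macrophage genes was 8.33, 8.50 and 8.05 in T-marker-high tumors, against 8.68, 8.76 and 9.29 in B-marker-high tumors. Of the 24, 17 had a lower mean in T-marker-high tumors, against 4889 of all 9966 tested genes. MSR1, a scavenger receptor, was the only one called (-3.71 ± 0.80, adjusted p = 0.0424; lost without Lymphoma_0, Lymphoma_2, Lymphoma_4 or Lymphoma_6, up to 0.151). The mean of 7 follicular dendritic cell genes was 9.86, 9.65 and 9.21 in T-marker-high tumors, against 10.51, 10.32 and 10.94 in B-marker-high tumors, with CXCL13 the only call. Fibroblast and matrix genes (23 tested) gave no call and lay at 7.75, 8.13 and 7.88 in T-marker-high tumors and at 7.74, 8.74 and 8.06 in B-marker-high tumors. Of 8 dendritic cell genes FSCN1 was called higher (1.89, adjusted p = 0.0368; lost without any tumor but Lymphoma_5, up to 0.143). Of 11 endothelial genes PROX1, and of 7 plasma cell genes FKBP11, were called lower (-1.61 and -1.39, adjusted p = 0.0306 and 0.0433; PROX1 was lost without any 1 of the 6, up to 0.133, and FKBP11 without Lymphoma_0, Lymphoma_2, Lymphoma_4 or Lymphoma_6, up to 0.165). Epithelial, neutrophil and erythroid genes gave no call. EPCAM, an epithelial adhesion molecule, was at 10.12 in Lymphoma_4 and 11.11 in Lymphoma_6 but at 5.97 in Lymphoma_3, against 4.90, 6.24 and 6.24 in B-marker-high tumors (adjusted p = 0.169). The part of these cells in the results above was not tested.

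Lymphoma_1, the tumor in neither group, did not go with either group as a whole. Its levels were 8.81 for CD3D, 8.57 for CD3E and 9.61 for CD3G, and 9.03 for CD79A, 7.84 for CD79B and 8.83 for MS4A1. CD3D and CD3G were thus lower than in any of the other 6. Over the 329 called genes it was nearer the T-marker-high mean at 174 (52.9%). The other 6 tumors set those means and the calls, so no such count is given for them. Of the 149 genes higher in T-marker-high tumors, its level was above the middle of the 2 group means at 58 (38.9%), and of the 180 lower ones at 64 (35.6%). Its correlation across 9966 genes was 0.859 to 0.871 with T-marker-high tumors and 0.859 to 0.887 with B-marker-high tumors. It thus lay on the low side for most genes of both kinds. Single genes, picked after their values were seen, ran both ways. It had CCR9 at 11.37, LEF1 at 10.30 and GATA3 at 9.55 among the T-marker-high genes, and BTK at 11.49, SYK at 9.67, STAP1 at 10.69 and LMO2 at 11.92 among the B-marker-high genes. It was low for TOX2 (4.17), GTSF1 (5.49), THEMIS (5.63) and TCF7 (6.20) among the first, and for PKHD1 (4.83), KLHL14 (6.21) and CXCR5 (7.37) among the second.

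Genes of blood progenitors and myeloid cells were at high levels in Lymphoma_1. MPO, the myeloperoxidase of granulocyte precursors, was at 12.46, against 6.28 to 7.33 in T-marker-high and 4.32 to 6.56 in B-marker-high tumors. FLT3, a receptor of early progenitors, was at 12.25, against 6.90 to 8.28 in T-marker-high and 5.57 to 8.27 in B-marker-high tumors. KIT, the stem cell factor receptor, was at 11.33, against 4.77 to 6.52 in T-marker-high and 6.23 to 7.34 in B-marker-high tumors. CD34, a surface marker of progenitors and vessels, was at 10.67, against 6.40 to 7.52 in T-marker-high and 6.64 to 7.48 in B-marker-high tumors. All 4 lay more than 3 units above each of the other 6 lymphomas. DNTT was at 12.08, close to the 11.99 of Lymphoma_3, and MYB was at 11.43, against 9.94 to 10.54 in T-marker-high and 4.32 to 8.56 in B-marker-high tumors. The mean of the lymphoid precursor list, which holds several of these genes, was 9.36 in Lymphoma_1, against 7.13, 6.89 and 7.11 in T-marker-high and 7.18, 7.09 and 6.87 in B-marker-high tumors. As 1 tumor it has no replicate and no test.

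**Figure D5:**
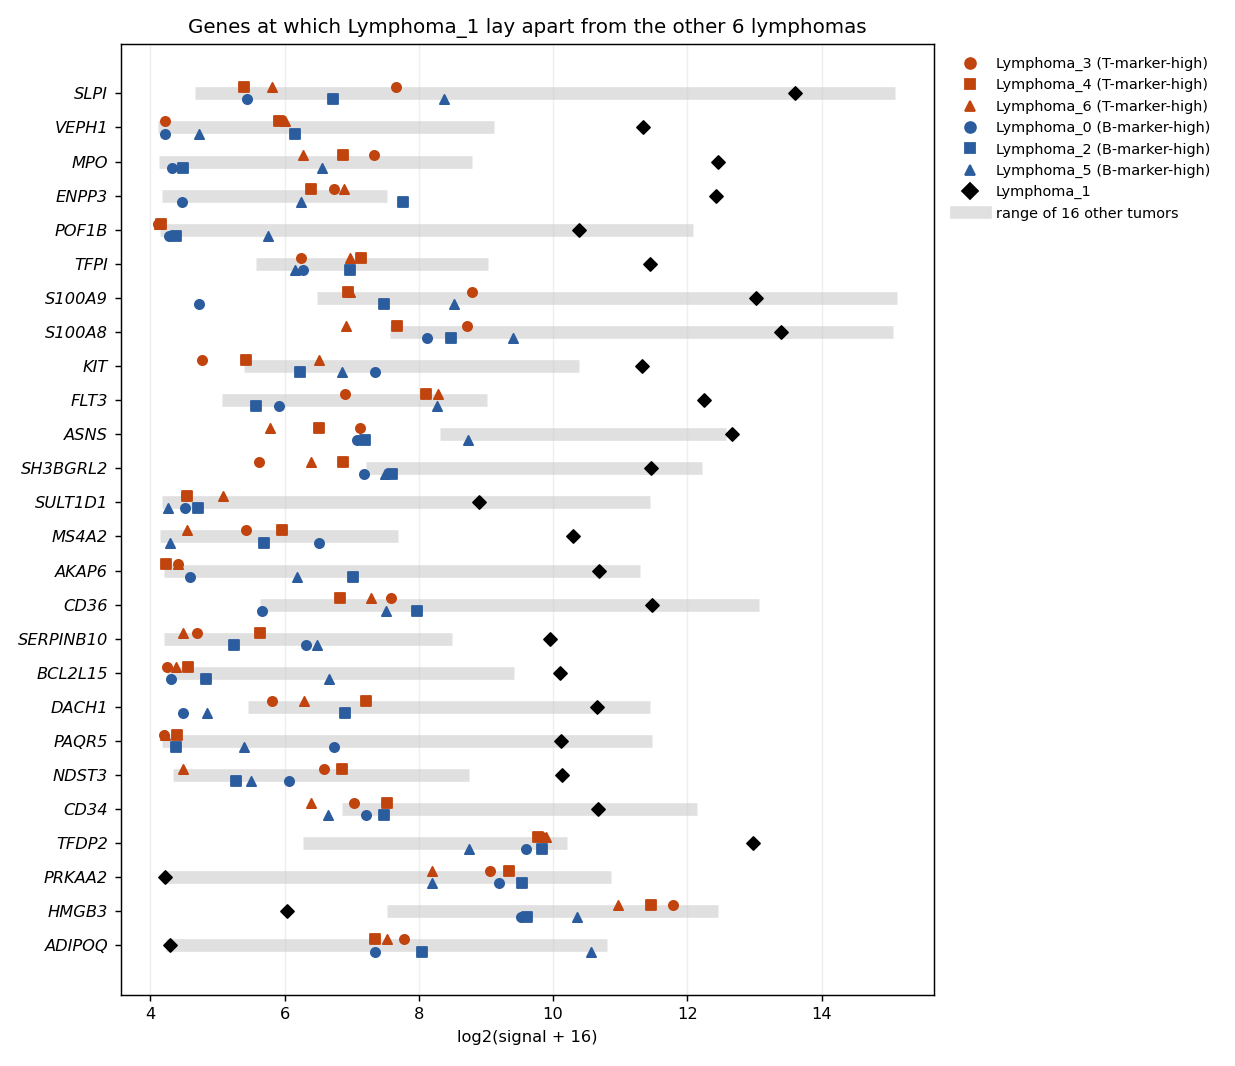
Levels, as log2(signal + 16), of the 26 tested genes at which Lymphoma_1 (black diamonds) lay at least 3 units above or below all 6 of the other lymphomas; red points are T-marker-high tumors, blue points B-marker-high tumors and grey bars the range of the 16 tumors of other types. Lymphoma_1 was above in 23 genes, among them MPO, FLT3, KIT and CD34, and below in 3.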

How the data were processed

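Tumor RNA was amplified with the NuGEN Ovation Pico WTA system and hybridised to the Affymetrix Canine Genome 2.0 array. The deposited values are intensity values that the authors made with MAS5, 1 linear signal per probeset, scaled so that the trimmed mean is about 500.1 on each array. No software version was found in the sources used here. The number of arrays limits the precision.

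The platform annotation gives 1 gene symbol for 29254 of 42924 non-control probesets and several for 439, which were not used; 13231 are unnamed here. Symbols are those of that annotation, with no coordinates or sequences used. Probeset values, as log2(signal + 16), were averaged per gene. A gene was kept, for 9972 of 15115, where 3 or more of the 23 arrays exceeded 7.03, the median over all genes and arrays. The 6 lymphomas were fitted with limma 3.58.1 in R 4.3.3 (lmFit and eBayes with a variance trend), two-sided, and p values were adjusted by Benjamini-Hochberg over all kept genes. The 6 grouping genes were left out of every count. The fit was tested on simulated data.

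Members and lists were chosen with earlier results of these data known. The named genes were the 6 grouping genes; in each direction the 20 called genes with the largest difference and no overlap; from each list as many as 5 called genes per direction, or the 3 with the largest difference where none was called; and a fixed set of lymphoma genes. Genes with only a locus number are not named. Alternatives changed 1 choice at a time: a pseudocount of 1 or 64, quantile-normalized values, no filter or a filter on the 6 lymphomas, the brightest probeset of a gene in place of the mean, no variance trend, the adjusted p alone, 1 fit with melanoma, sarcoma and TCC, Lymphoma_1 added to either group, and each tumor left out.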

Additional observations from a re-analysis of the deposited data

Results flagged for a closer look

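The comparison did not use Lymphoma_1, and its array held signals that none of the other 6 lymphomas had. It lay at least 3 log2 units above all 6 in 23 of the tested genes and at least 3 units below all 6 in 3. The same count for each of the other lymphomas, set against the remaining 6, was 4, 11 and 4 above and 0 to 2 below in T-marker-high tumors, and 0, 1 and 9 above and 1 below in B-marker-high tumors. The largest gaps were at SLPI (13.61, against at most 7.66 in T-marker-high and 8.37 in B-marker-high tumors), VEPH1 (11.34, against at most 6.01 in T-marker-high and 6.16 in B-marker-high tumors) and MPO (12.46, against at most 7.33 in T-marker-high and 6.56 in B-marker-high tumors). ENPP3 and MS4A2, genes known from basophils and mast cells, were at 12.42 and 10.29, and the neutrophil and monocyte genes S100A8 and S100A9 at 13.40 and 13.02. The 3 genes below all 6 were PRKAA2 (4.22), HMGB3 (6.03) and ADIPOQ (4.29). These are values of 1 tumor with no test.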

How the results depend on the processing

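No called gene was called in the opposite direction under any alternative that tested it. The filter on the 6 lymphomas left 14 of the calls untested and the brightest probeset 8. All called genes had ranges that did not overlap, so leaving out 1 tumor could not turn their direction. The counts of called genes (329, of which 149 higher and 180 lower in T-marker-high tumors) moved by more than 1.5 times in these settings. With no variance trend there were 187 calls, 83 higher and 104 lower. In 1 fit with melanoma, sarcoma and TCC there were 203, of which 103 were lower. With Lymphoma_1 added to the T-marker-high group there were 143 (51 higher, 92 lower), and with it added to the B-marker-high group 84 (49 higher, 35 lower); all of these were among the 329. Leaving out 1 tumor at a time gave 100 to 326 calls, 46 to 148 higher and 54 to 178 lower. The other settings gave 251 to 383 calls. Which property of a tumor moves the count was not tested. Of the 131 genes named by the rule and tested, 80 were called, and 42 lost the call without Lymphoma_0, 41 without Lymphoma_2 and 12 without Lymphoma_5. No paired analysis was possible because the tumors titled 3, 4 and 6 and those titled 0, 2 and 5 share no number. With 3 tumors a group and a division made on the same arrays, adjusted p values describe these 6 tumors, and signals near the lowest level limit what can be seen in genes such as CD8A.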

Other observations

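The following called genes outside the lists were named after their values were seen, and no theme is drawn from them. DNMT3A and TET1, which add and remove DNA methylation marks, were higher in T-marker-high tumors by 2.25 and 2.24. LMO4, a LIM-domain cofactor, lay at 13.89, 13.12 and 14.23 in T-marker-high tumors, against 9.72, 10.49 and 10.35 in B-marker-high tumors. TNFSF11, the RANK ligand, lay at 11.14, 8.73 and 10.49 in T-marker-high tumors, against 7.54, 6.98 and 7.47 in B-marker-high tumors. TLR1, a receptor of bacterial lipopeptides, lay at 7.95, 7.68 and 7.45 in T-marker-high tumors, against 10.56, 10.97 and 10.16 in B-marker-high tumors.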
